A study of Mus musculus with 54 samples.

Results

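The genes described here are 9 genes of the retinoic acid pathway, chosen by name, which cover the route from retinol to a responding germ cell gene. *Rdh10* and *Dhrs4* encode enzymes of retinol and retinal, *Aldh1a1* and *Aldh1a2* encode the retinal dehydrogenases that make retinoic acid, and *Cyp26b1* encodes a cytochrome P450 that degrades it. *Crabp1* encodes a cytosolic retinoic acid binding protein, *Rara* and *Rarg* encode nuclear receptors, and *Stra8* encodes a protein that germ cells need to enter meiosis. All 9 were found by symbol among the 23284 gene symbols of both RNA-seq count tables and on the mm9 mouse genome. The rule names the genes and uses no measured value, but the genes were chosen with earlier results of these data known.

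Retinoic acid is made inside testis cells in successive oxidations. Retinol is first oxidised to retinal, in which *Rdh10* is a main enzyme, and retinal is then oxidised irreversibly by the retinal dehydrogenases. The product enters the nucleus and binds receptor pairs on DNA. In the mouse testis it drives the differentiation of spermatogonia and meiotic entry, and its synthesis is shared between Sertoli cells and germ cells.

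The study compared C57BL/6 mice aged 3 months that differed in the DNA-binding protein CTCF and its testis paralogue BORIS (gene symbol *Ctcfl*). Wild type (WT) mice were Ctcf+/+ Boris+/+, CTCF HET mice Ctcf+/- Boris+/+, BORIS KO mice Ctcf+/+ Boris-/-, and compound mutant (CM, called DKO in the labels) mice Ctcf+/- Boris-/-. CM therefore still carried 1 intact *Ctcf* allele. RNA was sequenced from germ-cell-enriched whole testis suspensions (3 libraries per genotype, rRNA-depleted), and from round spermatids and spermatocytes purified by elutriation and sorting (3 libraries per genotype, 2 for WT spermatocytes, poly(A)-selected). ChIP-seq peak lists came from whole testis germ cells, for CTCF, RNA polymerase II (Pol2) and the promoter mark H3K4me3 in WT and CM, and for BORIS in WT. A germ cell preparation pooled 4 mice. The whole testis libraries came from independent preparations, so their p-values measure the spread between preparations. For the purified cells the study names replicates without saying whether each was a separate preparation. Their p-values therefore measure the spread between libraries.

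Read totals were 10437683 to 42055813 per whole testis library, 47740650 to 98545423 per round spermatid library and 53337530 to 88946702 per spermatocyte library. Spermatocyte markers summed to 3946–5047 counts per 1000000 reads (CPM) in WT spermatocytes and 1275–1699 in WT round spermatids, and spermatid markers to 29.9–31.2 and 976–1143. *Ctcf* itself was at 40.9–45.1 CPM in WT testis, 23–30.4 in CTCF HET and 24.3–26.9 in CM. CTCF HET round spermatids held 21.8–33.1 CPM of it against 28.4–48 in WT, a change of -0.44 that did not pass (adjusted p = 0.163). In the other Ctcf+/- purified cells the label was not borne out by this transcript: *Ctcf* was at 38.4–171 CPM in the round spermatid libraries labelled CM, and in spermatocytes at 34.8–89.3 in those labelled CM and 29.9–49.5 in those labelled CTCF HET, against 33.6–36.0 in WT. Directions drawn from those libraries follow their labels. Reads on *Ctcfl* remained in BORIS KO (2.06–2.38 CPM in round spermatids against 2.80–4.91 in WT), and the deleted part of the gene was not known here. Genes with at least 1 read numbered 12018–13406 in CTCF HET spermatocytes, 14932–16670 in CM round spermatids and 14145–16666 in CM spermatocytes, against 17504–17985 in purified WT cells.

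In WT animals the members with the highest levels differed between the whole testis and the purified cells. On a per-length scale (CPM per kb of exon), *Aldh1a1* led in whole testis at 52.1 ± 21.0 (SD, n = 3), ahead of *Aldh1a2* at 31.4 ± 1.98 and *Dhrs4* at 22.7 ± 5.46. The SD ranges of *Aldh1a1* and *Aldh1a2* overlapped, and that of *Dhrs4* lay below both. *Cyp26b1*, *Rdh10* and *Rara* followed at 4.27, 4.07 and 3.98 CPM per kb with SDs that overlapped, then *Rarg*, *Crabp1* and *Stra8* at 0.874, 0.614 and 0.598. In purified cells *Aldh1a2* was first, at 89.0 ± 5.84 CPM per kb in round spermatids (n = 3) and 126 ± 1.52 in spermatocytes (n = 2), and *Dhrs4* second, at 44.1 ± 1.37 and 28.5 ± 0.280. The other 7 members stayed at or below 4.22 CPM per kb in round spermatids and 1.12 in spermatocytes. *Aldh1a1* and *Cyp26b1* were close to absent from both, with at most 0.271 CPM per kb. Whole testis and purified libraries came from different protocols, so their levels were not tested against each other.

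**Figure D1:**
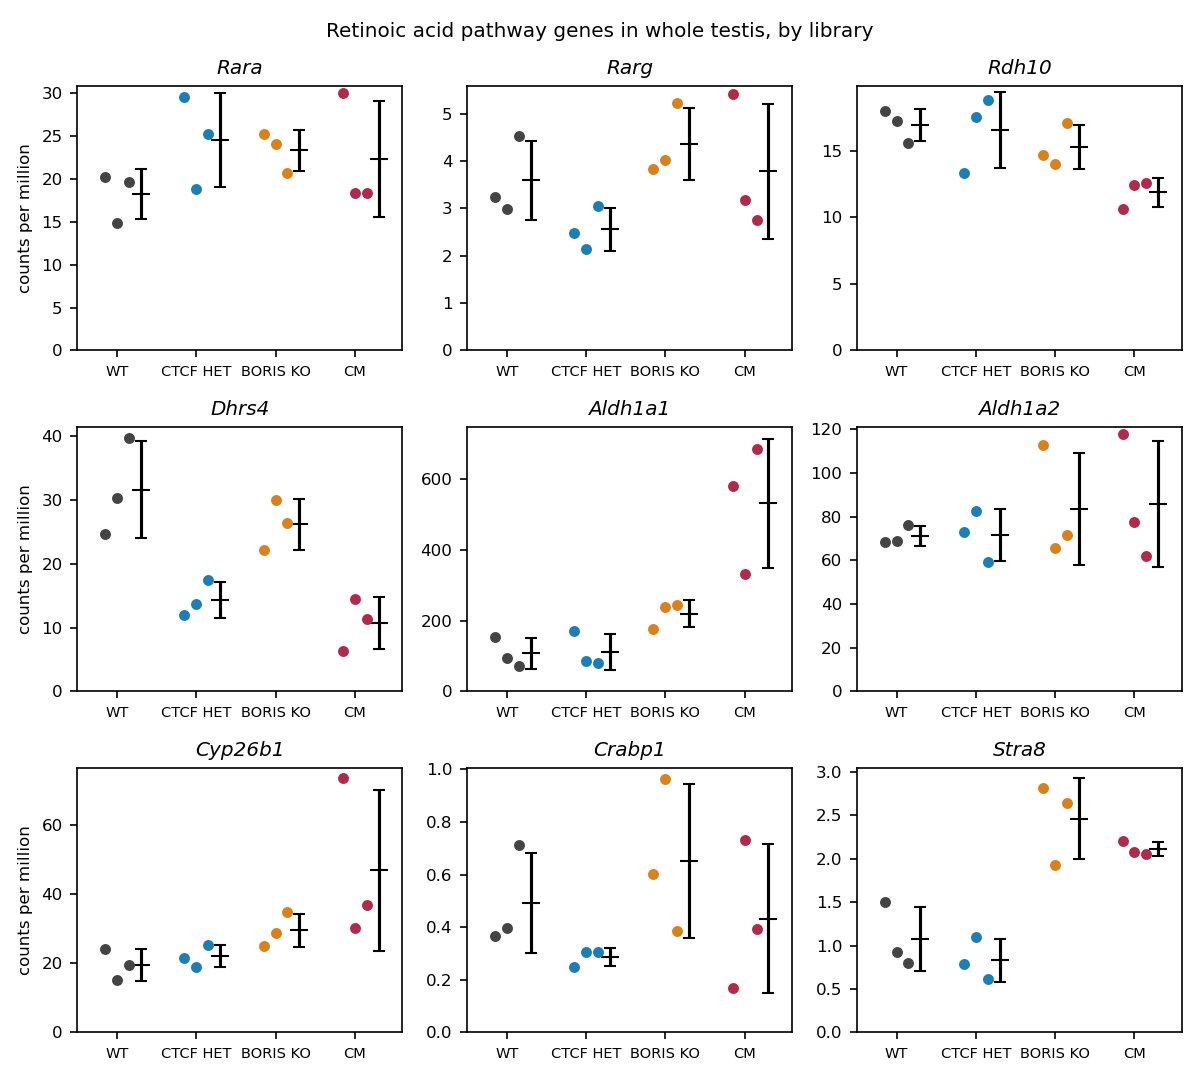
Level of each of the 9 genes in whole testis in CPM on a linear axis from 0, with 1 point per library, the 3 libraries of a genotype grouped together, and the mean and SD beside them. *Dhrs4* lies lower in every CTCF HET and CM library than in every WT library, and *Aldh1a1* and *Cyp26b1* lie higher in every CM library than in every WT library.

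Between purified WT cells, 7 of 9 members differed between round spermatids and spermatocytes, in a comparison that called 70.0% of all genes tested (edgeR quasi-likelihood test, Benjamini-Hochberg adjusted p under 0.05, as in all comparisons below). *Stra8* was higher in round spermatids, with 3.17, 9.98 and 9.64 CPM against 0.471 and 0.360 (log2 fold change 4.28 ± 0.60 SE, adjusted p = 5.07e-04). *Crabp1* behaved alike, with 2.60, 1.31 and 1.46 CPM against 0.0943 and 0.120 (4.14 ± 0.48, adjusted p = 1.80e-04). *Rdh10* (1.53 ± 0.29), *Dhrs4* (0.73 ± 0.10) and *Rarg* (0.73 ± 0.24) were also higher in round spermatids, while *Aldh1a2* was lower by a smaller step (-0.41 ± 0.09, adjusted p = 0.00379). *Aldh1a1* was lower too (adjusted p = 0.0110), but its round spermatid reads were 7, 0 and 0 against 44 and 39 in spermatocytes, so its fitted value of -3.94 ± 1.03 is no firm fold and became -8.08 without WT round spermatid replicate 1. *Rara* (-0.10 ± 0.19) and *Cyp26b1* (1.85 ± 0.82) did not pass the test. The *Rarg* call was lost when WT round spermatid replicate 2 or 3 or either WT spermatocyte library was left out (adjusted p 0.0722 to 0.202), and the *Aldh1a1* call without either WT spermatocyte library (0.0646 and 0.0790). When all genotypes shared 1 fit, *Rdh10*, *Rarg* and *Aldh1a1* were not called (0.0819, 0.257 and 0.0503).

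How many members changed with genotype varied as widely as the counts over all genes. In whole testis no member of 8 tested was called in CTCF HET, where 0.00621% of all genes were called (1 gene, with 424 at an unadjusted p under 0.05 and 3 by DESeq2), and none in BORIS KO, where 0.0551% were (9 genes, with 2717 and 376). With the replicate number as a block, which pairs the whole testis samples, 42 and 1077 genes were called. Among them was 1 member in each, *Dhrs4* lower in CTCF HET and *Stra8* higher in BORIS KO. In CM whole testis 3 of 8 were called without the block, *Aldh1a1* and *Cyp26b1* higher and *Dhrs4* lower, against 25.2% of all genes, 16.4% higher and 8.80% lower. In round spermatids the counts were 3 of 8 in CTCF HET (22.3% of all genes), 4 of 8 in BORIS KO (55.8%) and 0 of 8 in CM (0.00654%, 1 gene, with 3136 at an unadjusted p under 0.05 and 1721 by DESeq2). In spermatocytes they were 1 of 8 in CTCF HET (15.5%), 6 of 7 in BORIS KO (57.2%) and 1 of 8 in CM (0.604%). The members left out of each test had too few reads: *Crabp1* in whole testis, *Aldh1a1* in round spermatids, *Cyp26b1* in spermatocytes and, in BORIS KO spermatocytes, *Crabp1* as well. When all genotypes of a cell type shared 1 fit, *Rara* in round spermatids was the 1 BORIS KO call of a member that held, *Rara* and *Rdh10* were no longer called in CTCF HET round spermatids (adjusted p = 0.130 and 0.270), and *Dhrs4* was called there and in CM round spermatids (adjusted p = 0.00281). The comparisons of a preparation used the same WT libraries as control. The member that was lower in every CTCF HET and CM library of all 3 preparations was *Dhrs4*.

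**Figure D2:**
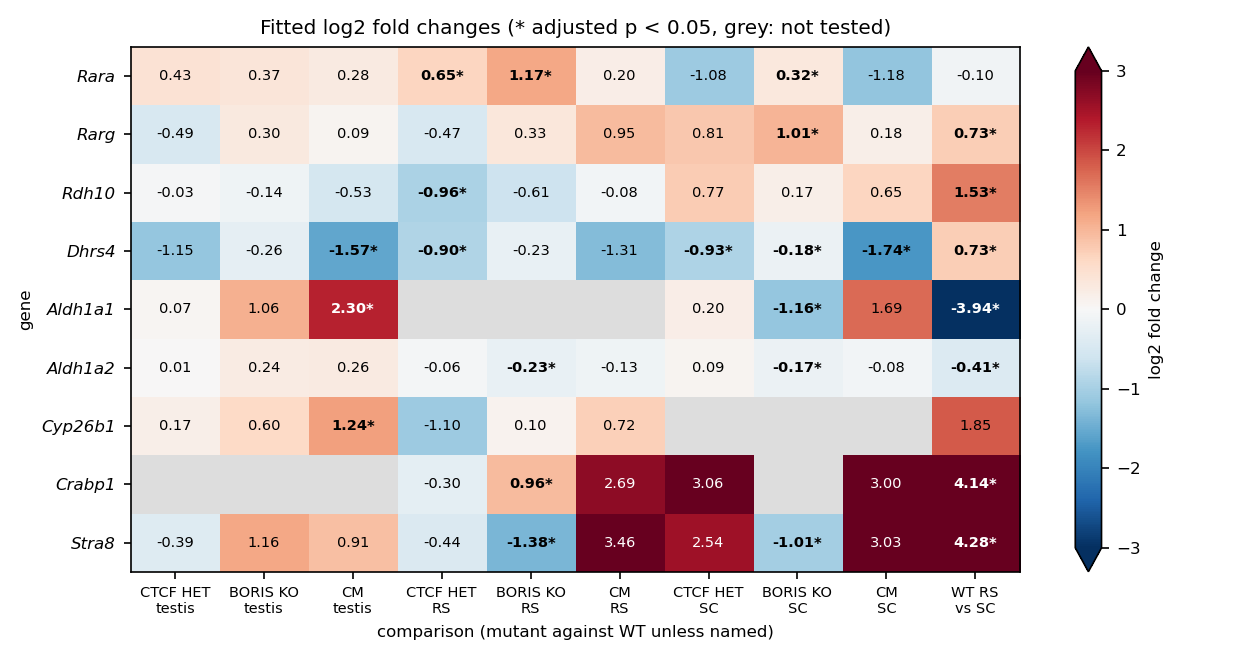
Fitted log2 fold changes of the 9 genes (rows) in the 9 comparisons of a mutant with WT and in WT round spermatids (RS) against WT spermatocytes (SC) (columns), as a colour scale with the value written in each cell, bold with an asterisk past an adjusted p of 0.05 and grey where not tested. *Dhrs4* is below 0 in all 9 comparisons with WT and lowest in CM, from -1.74 to -1.31.

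*Dhrs4* encodes a short-chain dehydrogenase/reductase that acts on retinal and retinol among other substrates. In whole testis it was at 24.7, 30.2 and 39.7 CPM in WT, 11.9, 13.7 and 17.4 in CTCF HET. The BORIS KO libraries held 22.1, 30.0 and 26.3, and the CM libraries 6.32, 14.4 and 11.4. In round spermatids it was at 62.1, 59.1 and 62.6 CPM in WT, 33.9, 34.1 and 31.9 in CTCF HET. BORIS KO held 56.3, 54.9 and 49.7, and those labelled CM 28.3, 15.9 and 27.8. In spermatocytes it was at 39.9 and 39.3 CPM in WT, 16.8, 20.9 and 19.4 in the libraries labelled CTCF HET, 32.8, 37.6 and 34.4 in BORIS KO, and 12.2, 10.2 and 13.5 in those labelled CM. Neither Ctcf+/- genotype overlapped WT in any preparation, whereas BORIS KO overlapped WT in whole testis and lay just below it in both purified cell types.

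The fall of *Dhrs4* was called in 4 of the 6 comparisons of a Ctcf+/- genotype with WT. In CTCF HET it fell by 0.90 ± 0.10 on the log2 scale in round spermatids (adjusted p = 0.00236) and by 0.93 ± 0.16 in spermatocytes (adjusted p = 0.0111), which is 1.87- and 1.91-fold. In CM it fell by 1.57 ± 0.35 in whole testis (2.98-fold, adjusted p = 0.0194) and by 1.74 ± 0.15 in spermatocytes (3.34-fold, adjusted p = 0.0205). The CTCF HET whole testis change was of like size, -1.15 ± 0.27 (unadjusted p = 0.00217), and missed the threshold after adjustment (adjusted p = 1.00), but with the replicate number as a block, which pairs the whole testis samples, it passed (-1.13, adjusted p = 0.00109). The CM round spermatid change was -1.31 ± 0.24 (adjusted p = 0.107), and DESeq2 gave an adjusted p of 2.55e-04. In BORIS KO the change was -0.26 ± 0.23 in whole testis, -0.23 ± 0.10 in round spermatids (adjusted p = 0.0627) and -0.18 ± 0.07 in spermatocytes, which passed (adjusted p = 0.0380).

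Single libraries decided several of these calls but no direction. In round spermatids the CTCF HET call held in 6 of 6 fits that left out 1 library. In CM whole testis it was lost without WT replicate 2 or 3 or CM replicate 3 (adjusted p 0.0639 to 0.0715), and in CM spermatocytes without either WT library or CM replicate 2 or 3 (0.0847 to 0.209). In CTCF HET spermatocytes it was lost without WT replicate 2 (0.0631) or CTCF HET replicate 2 (0.0553). In BORIS KO spermatocytes it was lost in 4 of 5 such fits (0.0832 to 0.120), without either WT library or BORIS KO replicate 1 or 3. In CM round spermatids it was gained without CM replicate 1 (0.0435).

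**Figure D3:**
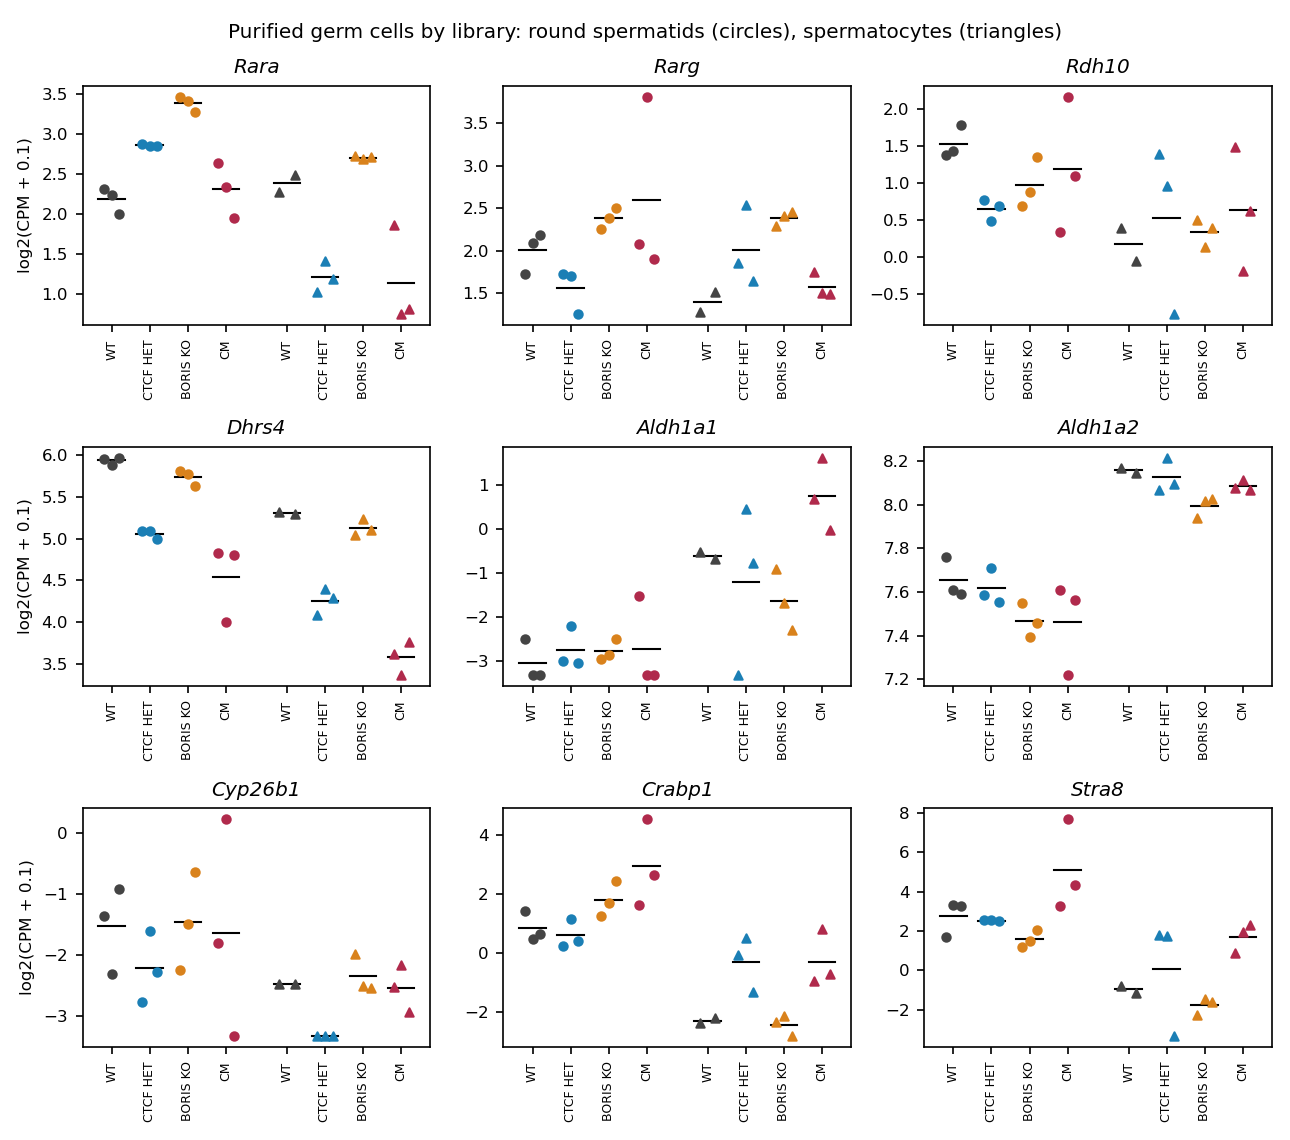
Level of each of the 9 genes in purified round spermatids (circles) and spermatocytes (triangles), as log2(CPM + 0.1) with an axis per gene, 1 point per library and a bar at the mean of each group. *Dhrs4* lies lower in every CTCF HET and CM library than in every WT library of the same cell type, and 1 CM round spermatid library lies far above the others for *Stra8*.

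The start of *Dhrs4* also carried CTCF peaks in WT germ cells that had no counterpart in the CM list. The study had already shown this gene among its examples of lost CTCF binding with changed expression in CM. The gene lies on the plus strand of chromosome 14 (chr14:56097595-56109175, mm9). A WT CTCF peak of height 729 covered its start (chr14:56097381-56097786, summit 44 bases before it), and a second of height 1114 lay in an intron (chr14:56097884-56098251, summit 506 bases after it). A WT BORIS peak of height 295, above 90% of the BORIS list, lay within the second one. No CM CTCF peak reached the gene or its 2 kb flanks, no Pol2 peak was listed in either genotype, and H3K4me3 covered the start in both. The score of that H3K4me3 peak was 230.9 in WT, above 76.0% of its list, and 90.79 in CM, above 27.2% of its own. Heights are summit heights. Heights and scores come from separately called lists and were not compared between lists. The sequence around the summit is shown for the *Dhrs4* peaks and the *Aldh1a2* peak, where only the WT list holds a peak, and for the first *Stra8* peak, where both lists hold one. The letters in capitals are 12-base stretches on either strand that match part of the CTCF motif, spelled CC, any 3 bases, AG, any 2 bases and GGC, with at most 1 mismatch among its fixed letters.
Dhrs4, before the start, chr14:56097501-56097594, plus strand: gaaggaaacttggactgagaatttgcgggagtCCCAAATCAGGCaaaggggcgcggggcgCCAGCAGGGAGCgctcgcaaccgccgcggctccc
Dhrs4, intron, chr14:56098051-56098151, plus strand: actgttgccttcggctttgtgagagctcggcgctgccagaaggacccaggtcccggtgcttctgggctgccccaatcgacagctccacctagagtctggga
Aldh1a2, before the start, chr9:71063075-71063175, plus strand: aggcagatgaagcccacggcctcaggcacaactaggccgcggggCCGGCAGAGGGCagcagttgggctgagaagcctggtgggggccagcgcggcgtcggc
Stra8, intron, chr6:34872198-34872298, plus strand: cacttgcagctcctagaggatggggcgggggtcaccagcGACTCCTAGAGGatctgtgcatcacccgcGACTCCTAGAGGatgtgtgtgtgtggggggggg
The first *Dhrs4* window, cut where the transcript begins, holds 2 such stretches with 1 mismatch each, and the second holds none. The *Aldh1a2* window holds 1 stretch without a mismatch, and the *Stra8* window holds 2 with 1 mismatch each, both overlapping copies of ctcctagaggat, which occurs 3 times. Of all 34625 windows of 101 bases at WT CTCF summits, 45.6% held a stretch without a mismatch and 81.8% one with at most 1, against 1.7% and 20.2% of windows 10 kb away.

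**Figure D4:**
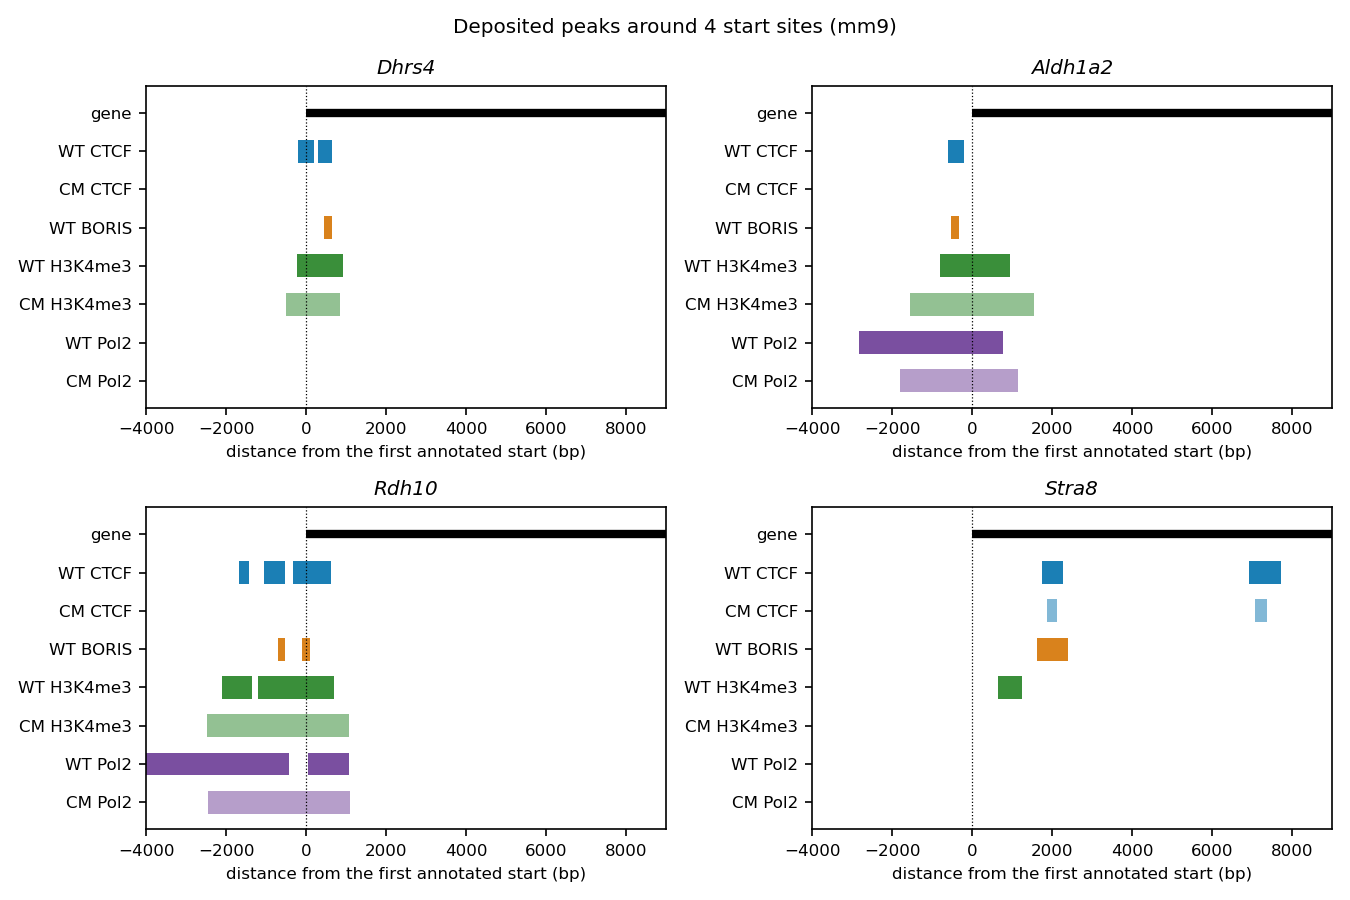
Listed ChIP-seq peaks around the first annotated start of *Dhrs4*, *Aldh1a2*, *Rdh10* and *Stra8*, drawn as bars by distance from the start in bases, with a row for each antibody and genotype and the gene in black. At *Dhrs4*, *Aldh1a2* and *Rdh10* the WT CTCF bars at the start have no CM CTCF bar below them, while both WT CTCF bars of *Stra8* have one.

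Counted over the whole list, 7 of 9 members had a WT CTCF peak within the gene or 2 kb of it (50% of 21684 annotated genes did), 7 of 9 a WT BORIS peak (22.1%) and 4 of 9 a CM CTCF peak (33.4%). The members without any CTCF or BORIS peak were *Aldh1a1* and *Crabp1*. Of 16 WT CTCF peaks at the members, 7 overlapped a CM CTCF peak, against 56.1% of all WT CTCF peaks, and 7 overlapped a BORIS peak, against 17.5%. In *Dhrs4*, *Aldh1a2* and *Rdh10* none of the WT CTCF peaks overlapped one in CM, as in 36.9% of all genes with a WT CTCF peak. Of all WT CTCF peaks with a summit within 1 kb of a gene start, 30.6% overlapped a CM peak, and 51.0% of those that also overlapped a BORIS peak. Pol2 peaks were listed at 4 of 9 members in WT (47.8% of genes) and at the same members, *Rara*, *Rarg*, *Aldh1a2* and *Rdh10*, in CM (54.7%). H3K4me3 peaks were listed at 8 of 9 in WT (62.4%) and 7 of 9 in CM (62.5%).

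The other members whose WT CTCF peaks were all missing from the CM list were *Aldh1a2* and *Rdh10*. *Aldh1a2*, the retinal dehydrogenase of highest level per length in the purified germ cells, had a WT CTCF peak of height 977 with its summit 471 bases before its start and a BORIS peak of height 125 within it. Its RNA stayed at 68.3, 68.7 and 76.2 CPM in WT testis and 118, 77.6 and 61.8 in CM testis. In round spermatids the CM libraries held 195, 149 and 189 CPM against 217, 195 and 193 in WT, and in spermatocytes 269.6, 277 and 268 against 288 and 283. Neither CTCF HET nor CM passed the test in any preparation (log2 fold changes from -0.13 to 0.26). In BORIS KO it fell by 0.23 ± 0.08 in round spermatids (adjusted p = 0.0442) and by 0.17 ± 0.06 in spermatocytes (adjusted p = 0.0298). The first of these small calls was lost in 5 of 6 fits that left out 1 library, all but that without WT replicate 1 (adjusted p 0.0528 to 0.198), and the second in 4 of 5, all but that without BORIS KO replicate 3 (0.0607 to 0.107). The first was also lost with RLE factors, by DESeq2 and without a filter on low counts (0.0877, 0.103 and 0.396), and the second without that filter (0.0512).

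*Rdh10*, the retinol dehydrogenase, had WT CTCF peaks of heights 355, 111 and 619 from 1560 bases before to 6 bases after its start, and BORIS peaks of heights 36 and 167. None was matched in CM, while an H3K4me3 peak covered the start in both genotypes. A Pol2 peak covered the start in CM, and in WT it lay between a pair of Pol2 peaks. The ribosomal protein gene *Rpl7* starts 1112 bases away on the opposite strand, so these peaks belong to either promoter. In round spermatids *Rdh10* was at 2.50, 2.61 and 3.34 CPM in WT and 1.60, 1.30 and 1.51 in CTCF HET, without overlap, and it fell by 0.96 ± 0.22 (adjusted p = 0.0173). That call was lost in 4 of 6 fits that left out 1 library, without WT replicate 2 or 3 or CTCF HET replicate 1 or 2 (adjusted p 0.0541 to 0.0744). In CM testis it was at 10.6, 12.4 and 12.6 CPM against 18, 17.2 and 15.6 in WT, also without overlap, but the change of -0.53 ± 0.24 did not pass (adjusted p = 0.124). *Rpl7* was not called in any mutant against WT, with values from -0.17 to 0.17, and its counts are uncertain because ribosomal protein genes have many near-identical pseudogenes.

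*Aldh1a1*, a retinal dehydrogenase known from somatic cells of the testis, was the member that rose most in CM whole testis. It was at 155, 95.0 and 71.3 CPM in WT, 171, 84.7 and 81.3 in CTCF HET. The BORIS KO libraries held 177, 239 and 244, and the CM libraries 579, 331 and 686. Every CM library exceeded every other library, and every BORIS KO library exceeded every WT library. The rise in CM was 2.30 ± 0.37 on the log2 scale (4.91-fold, adjusted p = 0.0154), and the BORIS KO change of 1.06 ± 0.28 did not pass (adjusted p = 0.204, by DESeq2 0.0363). The CM call was lost without WT replicate 2 or 3 or CM replicate 3 (adjusted p 0.0572 to 0.0667), with the change between 2.07 and 2.21. *Aldh1a7*, a near copy that shares 7.53% of the 50-base stretches of *Aldh1a1*, went from 5.04–5.96 CPM in WT to 22.0–45.4 in CM (2.69 ± 0.32, adjusted p = 0.0151), and reads in shared stretches could be counted for either gene. No CTCF or BORIS peak lay at *Aldh1a1*.

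*Cyp26b1*, which degrades retinoic acid and is known from the somatic cells around and between the germ cells, rose as well. It was at 24.3, 15.1 and 19.5 CPM in WT testis and 73.7, 30.4 and 36.9 in CM, a change of 1.24 ± 0.36 (2.36-fold, adjusted p = 0.0369). CTCF HET at 21.7, 19.1 and 25.4 CPM overlapped WT, and BORIS KO at 25.1, 28.8 and 34.8 lay above it without passing (0.60 ± 0.22, adjusted p = 0.245). The CM call was lost in 4 of 6 fits that left out 1 library, without any 1 WT library or without CM replicate 3 (adjusted p 0.0633 to 0.134). In purified cells the gene did not exceed 1.08 CPM. A WT CTCF peak of height 2557 in an intron, with its summit 3280 bases after the first start, was matched by a CM peak of height 444, and a BORIS peak of height 23 lay in a coding exon without a CTCF peak. A further CM CTCF peak of height 111 in an intron (chr6:84529023-84529181) overlapped no WT CTCF peak.

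Markers of somatic testis cells were higher in the same CM libraries. Leydig cell markers (8 of 8 measured) summed to 399–649 CPM in WT testis, 762–1541 in BORIS KO and 1922–3905 in CM. Sertoli cell markers (9 of 10) summed to 263–353, 475–513 and 607–1079 CPM, peritubular and vascular markers (7 of 7) to 43.6–63.0, 70.8–78.2 and 117–334, and macrophage markers (6 of 6) to 47.9–126, 111–130.4 and 163–592. Spermatid markers (8 of 8) went the other way, from 12732–20788 CPM in WT to 3725–11669 in CM, while spermatogonial markers (8 of 8) were at 44.0–55.6 and 54.6–72.7. *Aldh1a1* and *Cyp26b1* therefore moved with somatic markers, whose part in the result was not tested. A changed number of cells of a type and a changed amount of RNA per cell cannot be told apart in such bulk libraries. In the purified cells, where *Dhrs4* was also lower, the Leydig sum did not exceed 12.3 CPM and the Sertoli sum 19.6. Other sums also differed from WT there, in BORIS KO as well. In round spermatids the spermatid sum was 698–743 CPM in CTCF HET and 407–615 in CM against 976–1143 in WT. In BORIS KO it was 642, 639 and 1209.9. The spermatocyte sum was 797–1263 in CTCF HET and 494–509 in BORIS KO against 1275–1699, while CM at 1563–2620.1 overlapped WT. The spermatogonial sum was 52.2–157 in CM against 29.0–38.8, while CTCF HET at 34.3–44.4 and BORIS KO at 32.1–44.6 overlapped WT. The Sertoli sum was 9.79–12.1 in CTCF HET and 7.79–9.14 in BORIS KO against 4.95–5.77, while CM at 2.82–16.3 overlapped WT. The peritubular and vascular sum was 14.4–15.7 in CTCF HET, 8.41–12.8 in CM and 8.55–9.39 in BORIS KO against 4.65–7.69. *Dhrs4* in BORIS KO round spermatids was at 49.7–56.3 CPM against 59.1–62.6 in WT. In spermatocytes the spermatocyte sum was 5189.8–5684 CPM in CTCF HET and 5447–9038 in CM against 3946–5047 in WT, and 2438–2488 in BORIS KO. The spermatid sum was 45.4–74.4 in CTCF HET, 27.5–108 in CM and 33.4–52.7 in BORIS KO against 29.9–31.2. The spermatogonial sum was 128–141, 216–279 and 148–157 in the same order, against 160.2–170.4. The part of these sums in the *Dhrs4* values was not tested.

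**Figure D5:**
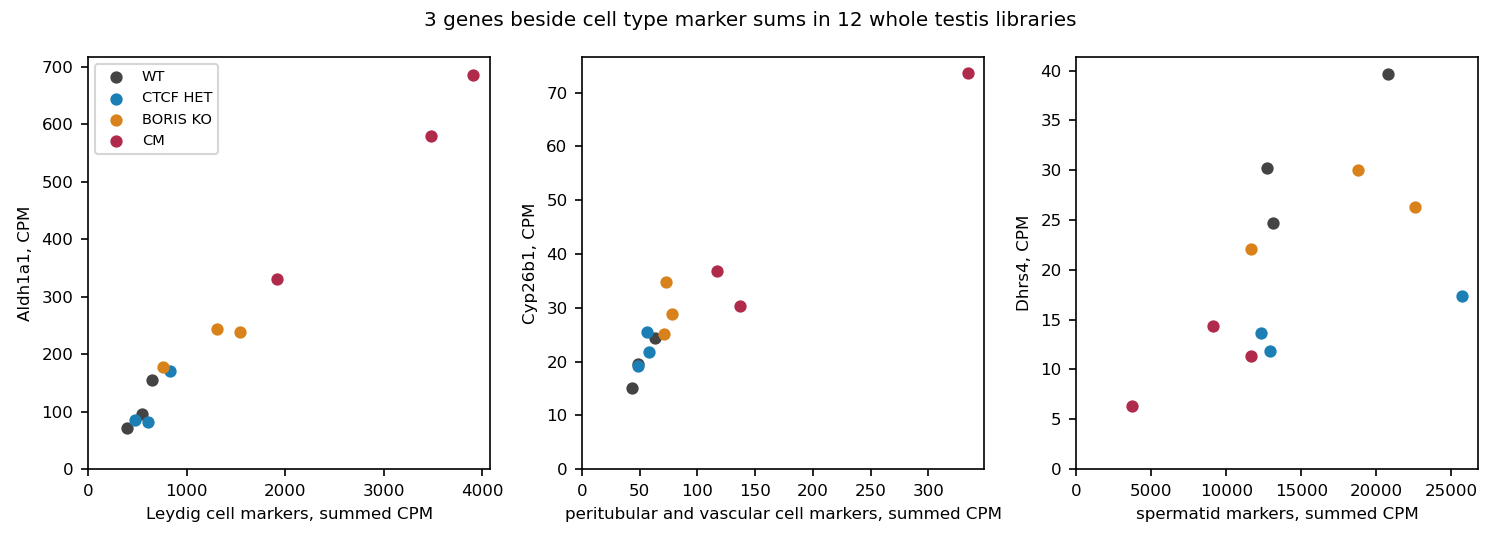
Summed CPM of cell type markers on the x axis against the CPM of a member on the y axis in the 12 whole testis libraries, on linear axes from 0, with 1 point per library coloured by genotype, for *Aldh1a1* with Leydig cell markers, *Cyp26b1* with peritubular and vascular markers and *Dhrs4* with spermatid markers. The CM libraries hold the highest Leydig sums, from 1922 to 3905, with the highest *Aldh1a1* levels, from 331 to 686 CPM.

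Of the receptor genes, *Rara* was called in both BORIS KO cell types and *Rarg* in BORIS KO spermatocytes, comparisons in which 55.8% and 57.2% of all genes were called, and *Rara* also in CTCF HET round spermatids (22.3%). *Rara*, the receptor long tied to the Sertoli cells and the progress of meiosis, was at 4.86, 4.62 and 3.92 CPM in WT round spermatids, 7.25, 7.09 and 7.11 in CTCF HET. The BORIS KO libraries held 10.9, 10.5 and 9.59, and the CM libraries 6.14, 4.94 and 3.77. It rose by 1.17 ± 0.15 in BORIS KO (2.24-fold, adjusted p = 2.07e-04), a call that held whichever library was left out. The rise in CTCF HET of 0.65 ± 0.15 (adjusted p = 0.0176) was lost in 5 of 6 such fits (adjusted p 0.0521 to 0.0793), without any library other than WT replicate 1. In spermatocytes *Rara* was at 4.75 and 5.50 CPM in WT and 6.49, 6.34 and 6.42 in BORIS KO (0.32 ± 0.11, adjusted p = 0.0229, lost without WT replicate 1 at 0.207 or BORIS KO replicate 3 at 0.0585). It stood lower, at 1.94, 2.58 and 2.18 CPM, in the libraries labelled CTCF HET and at 3.53, 1.59 and 1.66 in those labelled CM, but neither change passed (-1.08 ± 0.40 and -1.18 ± 0.41, adjusted p = 0.117 and 0.122). Without CM replicate 1 the CM change was -1.66 and passed (adjusted p = 0.00538). In whole testis no genotype passed the test (0.28 to 0.43).

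*Rarg*, the receptor known from differentiating spermatogonia, was at 2.33 and 2.76 CPM in WT spermatocytes and 4.78, 5.22 and 5.38 in BORIS KO. This was a rise of 1.01 ± 0.13 (2.01-fold, adjusted p = 3.71e-05), called in all 5 fits that left out 1 library but not when all genotypes shared 1 fit (adjusted p = 0.0746). In BORIS KO round spermatids it was at 4.66, 5.14 and 5.55 CPM against 3.21, 4.17 and 4.46, above WT without passing (0.33 ± 0.19, adjusted p = 0.163). Beside these values, spermatocyte markers summed to 2438–2488 CPM in BORIS KO spermatocytes against 3946–5047 in WT, and to 494–509 against 1275–1699 in round spermatids. Their part in the receptor values was not tested. The *Rara* locus held 6 WT CTCF peaks, of which the 3 highest (1357, 2498 and 1120) were matched in CM and those of heights 117, 122 and 117 were not, with 1 BORIS peak of height 62. *Rarg* had 1 WT CTCF peak of height 1881 in a coding exon (chr15:102069677-102070011), with a BORIS peak of height 163 and a CM CTCF peak of height 114 within it.

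*Stra8*, the retinoic acid responsive gene of meiotic entry, was low in whole testis, at 1.5, 0.928 and 0.801 CPM in WT, 0.786, 1.10 and 0.610 in CTCF HET. The BORIS KO libraries held 2.81, 1.93 and 2.64, and the CM libraries 2.20, 2.08 and 2.05. All 6 Boris-/- libraries lay above all 6 Boris+/+ libraries. The spermatogonial marker sum was 53.6–63.8 CPM in BORIS KO and 54.6–72.7 in CM, against 44.0–55.6 in WT and 47.3–53.7 in CTCF HET. Its part in these *Stra8* values was not tested. The changes of 1.16 ± 0.32 in BORIS KO (adjusted p = 0.212) and 0.91 ± 0.35 in CM (adjusted p = 0.0857) did not pass. With the replicate block the BORIS KO change passed narrowly (1.17, adjusted p = 0.0496). The CM change passed when all genotypes shared 1 fit (adjusted p = 0.0421).

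In purified cells *Stra8* fell in BORIS KO and did not pass the test in CTCF HET or CM. In round spermatids it was at 3.17, 9.98 and 9.64 CPM in WT, 5.75, 5.75 and 5.55 in CTCF HET. BORIS KO held 2.20, 2.75 and 4.06, and those labelled CM 9.55, 206 and 20.4. In spermatocytes it was at 0.471 and 0.360 CPM in WT, 3.35, 3.29 and 0 in those labelled CTCF HET, 0.112, 0.264 and 0.235 in BORIS KO, and 1.74, 3.73 and 4.83 in those labelled CM. The count of 0 allows up to 0.0606 CPM (3 reads). It fell in BORIS KO by 1.38 ± 0.42 in round spermatids (adjusted p = 0.0197) and by 1.01 ± 0.37 in spermatocytes (adjusted p = 0.0336). The first call was lost without WT replicate 2 or 3 or BORIS KO replicate 1 or 2 (adjusted p 0.0641 to 0.0878), and the second without either WT library (0.0756 and 0.244) and by DESeq2 (0.120).

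In the libraries labelled CM *Stra8* stood higher than WT without passing, by 3.46 ± 1.15 in round spermatids (adjusted p = 0.179, or 0.0281 when all genotypes shared 1 fit), where CM replicate 1 lay within the WT range, and by 3.03 ± 0.54 in spermatocytes (adjusted p = 0.0580, by DESeq2 1.03e-05, and 0.00286 without CM replicate 1). CM round spermatid replicate 2 stood apart, and without it the round spermatid change was 0.99 ± 0.53 (adjusted p = 0.374). It also had the highest *Crabp1* (23.3 CPM), *Rarg* (13.9) and spermatogonial marker sum (157 against 52.2–55.9 in the other CM and 29.0–38.8 in the WT libraries). The spermatogonial sum was 216–279 CPM in CM spermatocytes against 160.2–170.4 in WT, and its part in the *Stra8* values was not tested.

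Both WT CTCF peaks at the *Stra8* locus overlapped a CM CTCF peak. The WT BORIS peak in an early intron (chr6:34871780-34872547, height 1462) was higher than 99.9% of the BORIS list, and the WT CTCF peak under it (height 950, summit 2085 bases after the first start) was matched by a CM peak of height 144. A further WT CTCF peak of height 1691, with its summit 7235 bases after that start, had a CM peak of height 383. The first WT peak was above 65.9% of its list and the matching CM peak above 12.9% of its own. For the further peak the shares were 80.1% and 60.9%. The H3K4me3 peak near the start was listed in WT only, at a score of 52.66 that was above just 2.66% of that list, and Pol2 was listed in neither genotype.

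*Crabp1*, the retinoic acid binding protein, was too low to test in whole testis, at 0.170–0.964 CPM over all 12 libraries. In round spermatids it was at 2.60, 1.31 and 1.46 CPM in WT and 2.28, 3.17 and 5.40 in BORIS KO, overlapping, with a rise of 0.96 ± 0.36 that passed (adjusted p = 0.0463) and was lost without WT replicate 2 or 3 or BORIS KO replicate 2 or 3 (0.0719 to 0.198). The libraries labelled CM held 2.98, 23.3 and 6.14 CPM, all above WT, and the change of 2.69 ± 0.78 did not pass (adjusted p = 0.171, by DESeq2 0.00566) and was 1.36 ± 0.45 without CM replicate 2 (adjusted p = 0.182). In spermatocytes it was at 0.0943 and 0.120 CPM in WT and 0.422, 1.65 and 0.517 in those labelled CM (3.00 ± 0.94, adjusted p = 0.102, by DESeq2 0.0164), a change of 2.07 without CM replicate 2. The gene had no CTCF, BORIS or Pol2 peak, and H3K4me3 in both genotypes. *Aldh1a1*, at no more than 0.593 CPM in WT or BORIS KO spermatocytes, fell there by 1.16 ± 0.44 in BORIS KO (adjusted p = 0.0442), a call that was lost in 4 of 5 fits that left out 1 library (0.0848 to 0.229), without either WT library or BORIS KO replicate 2 or 3, and by DESeq2 (0.0745).

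Whether losing BORIS acted differently on a Ctcf+/- background was tested in whole testis as an interaction. No member of 9 passed, against 0% of all genes (0 of 17185, with 1713 at an unadjusted p under 0.05 and 29 by DESeq2). The interaction of *Aldh1a1* was 1.20 ± 0.51 (unadjusted p = 0.0357, adjusted p = 0.482) and that of *Dhrs4* was -0.15 ± 0.42. The CM change was also compared between round spermatids and spermatocytes, and again no member of 9 passed, against 3.51% of all genes. For *Dhrs4* the difference was 0.37 ± 0.34 and for *Rara* 1.31 ± 0.58 (adjusted p = 0.308).

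The wider pathway was described over 46 further genes in 5 lists, of which 36 could be tested in CM whole testis. There 10 were higher and 4 lower, where 16.4% of all genes were higher and 8.80% lower, with a median log2 fold change of 0.35 against 0.00 over all genes. Of 12 tested enzymes of retinol and retinal oxidation 5 rose (*Dhrs7*, *Dhrs3*, *Adh1*, *Rdh9* and *Aldh1a3*) and none fell. Among the uptake and binding genes, *Fabp5* rose and *Bcmo1* fell. Of 10 receptors and co-regulators, *Rarb* and *Rxrg* fell, and of 8 responsive genes *Ccnd2*, *Tgm2* and *Kit* rose and *Rec8*, a meiotic cohesin, fell. Neither of the other Cyp26 genes had enough reads.

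The genes described next have the lowest adjusted p among the rises and among the falls, a choice that favours groups without overlap. *Fabp5*, a fatty acid binding protein that also carries retinoic acid, went from 2.55, 1.46 and 2.05 CPM to 10.9, 8.0 and 13.2 (2.37 ± 0.34, adjusted p = 0.0151). *Ccnd2*, a cyclin of dividing spermatogonia, went from 2.15, 2.32 and 2.05 CPM to 25.7, 8.24 and 18.6 (2.99 ± 0.43, adjusted p = 0.0151), and *Tgm2*, a transglutaminase induced by retinoic acid, from 6.58–7.24 to 16.4–33.7 (1.81 ± 0.31, adjusted p = 0.0154). All 3 were near absent from purified round spermatids, at no more than 0.858 CPM. In spermatocytes *Ccnd2* was at 0.822 and 0.707 CPM in WT. The spermatocyte libraries labelled CTCF HET held 2.32, 1.79 and 0.930 CPM of it, and those labelled CM 2.15, 0.725 and 2.19. *Fabp5* and *Tgm2* did not exceed 0.533 CPM in spermatocytes. In whole testis the receptor gene *Rarb* went down from 2.15, 4.51 and 2.40 CPM to 0.436, 0.610 and 0.788 (-2.36 ± 0.44, adjusted p = 0.0159). *Bcmo1*, which cleaves carotene to retinal, went from 35.9–52.0 to 13.8–20.5 CPM (-1.31 ± 0.26, adjusted p = 0.0165), and *Rxrg*, a partner receptor, from 3.38–4.13 to 0.709–1.71 (-1.53 ± 0.37, adjusted p = 0.0229). As with the members, the rises went with higher somatic marker sums and the falls with lower spermatid sums in the same libraries, and their part was not tested.

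In the other comparisons the pathway genes were called 0 of 35 times in CTCF HET testis and 0 of 36 in BORIS KO testis. In round spermatids 6 of 29 were called in CTCF HET, with 2 higher and 4 lower (22.3% of all genes were called), 16 of 29 in BORIS KO, with 9 higher and 7 lower (55.8%), and 0 of 30 in CM. In spermatocytes 3 of 24 were called in CTCF HET (15.5%), 17 of 29 in BORIS KO, with 10 higher and 7 lower (57.2%), and 0 of 28 in CM. Between the purified WT cells 21 of 32 were called, with 14 higher in round spermatids and 7 lower (70.0%). Of 7 tested responsive genes, 4 were called higher in round spermatids there and 0 lower. The counts over all lists were near the shares of all genes. *Bcmo1* was lower in CTCF HET round spermatids, at 14.1–15.1 CPM against 21.8–27.9 in WT, and in BORIS KO round spermatids, at 17.8–21.2.

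Across the 12 whole testis libraries, the genes whose log2 CPM ran most like *Aldh1a1* among 17184 were *Pgm3*, *Zfp521* and *Morf4l2* (Pearson r = 0.984, 0.984 and 0.983). Those most like *Stra8* were *Dock5*, *Zcwpw1* and *Entpd4* (0.918, 0.914 and 0.897), and those most like *Aldh1a2* were *Ubox5*, *Card10* and *Timeless* (0.869, 0.850 and 0.849). These coefficients run over libraries of 4 genotypes whose marker sums and read totals also differed, as given above, and carry no test.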

How the data were processed

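The deposited RNA-seq tables hold read counts per gene, raw, made by the authors with TopHat2 and Bowtie2 (whole testis) or STAR (purified cells) on mm9. The counting tool, annotation and strand setting are not given in the sources used here, so reads of overlapping antisense transcripts cannot be told apart. Whole testis and purified tables were analysed separately. The deposited CTCF and BORIS lists (MACS, then PeakSplitter, 1 list per antibody and genotype) give summit heights as a signal, and the deposited Pol2 and H3K4me3 lists give a peak score, with the replicates of an antibody in 1 list, so no replicate test of peaks was possible. Genes and peaks were matched within 2 kb, with overlap from 1 base, on the mm9 annotation (21684 symbols matched).

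Counts were tested with edgeR 4.0.16 in R 4.3.3 (filterByExpr, TMM factors, robust quasi-likelihood fit of each genotype with WT, Benjamini-Hochberg adjustment over all genes tested), and tested on simulated data with 200 changed genes. CPM use TMM factors. DESeq2 1.42.0, RLE factors, no filter, 1 fit over all genotypes, stricter thresholds, a replicate block and leaving out each library were alternatives. Replicate numbers paired the whole testis samples (18 of 18 between-genotype correlations of deviations over 0.1, 0.121 to 0.631), which rests on the data and not on a stated shared litter or day. All 9 members are named, with the 3 pathway genes of smallest adjusted p per direction in CM testis, overlapping or promoter-sharing genes, near copies and the 3 genes most like *Stra8*, *Aldh1a1* and *Aldh1a2*. The members and lists were chosen with earlier results of these data known. Sequences were read from the mm9 genome. The values of 1 pathway gene, which is part of the counts, are not reported here.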

Additional observations from a re-analysis of the deposited data

Results flagged for a closer look

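The values of *Rara* and *Rarg* had opposite signs in the 2 purified cell types of CTCF HET. *Rara* was higher than WT in all 3 CTCF HET round spermatid libraries (log2 fold change 0.65) and lower than WT in all 3 spermatocyte libraries labelled CTCF HET (-1.08). *Rarg* was -0.47 in round spermatids, where CTCF HET at 3.21, 3.16 and 2.29 CPM did not exceed the lowest WT library at 3.21, and 0.81 in spermatocytes, where it was at 3.52, 5.72 and 3.03 CPM against 2.33 and 2.76. The difference between cell types was not tested for either gene. Of these 4 values only the *Rara* rise in round spermatids passed its own test, and the spermatocyte libraries labelled CTCF HET did not show lower *Ctcf* and had reads on 12018–13406 genes against 17631–17683 in WT.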

How the results depend on the processing

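Of 41 member values that passed the test under at least 1 setting, none changed sign under any alternative (205 values, of which 27 lost and 12 gained the call) or without 1 library (224 values, of which 60 lost and 12 gained it). The number of members called changed by more than 1.5 times as follows. With the replicate block it was 1 in CTCF HET and 1 in BORIS KO whole testis (42 against 1 and 1077 against 9 of all genes) and 2 in BORIS KO spermatocytes, and the block changed no other whole testis member call (7043 against 4135 genes in CM). In purified cells replicate numbers showed no such pairing. There 4 of 18 correlations in round spermatids (mean 0.0153) and 1 of 15 in spermatocytes (mean -0.0111) were over 0.1. With DESeq2 it was 1 in BORIS KO testis, 2 in CM round spermatids and 3 in CM spermatocytes. With 1 fit over all genotypes it was 1 for CTCF HET and for BORIS KO and 3 for CM in round spermatids, 0 in BORIS KO spermatocytes and 4 between the WT cell types. With a fold change over 2 required it was 0, 2, 0, 3 and 4 in CTCF HET and BORIS KO round spermatids, CTCF HET and BORIS KO spermatocytes and the WT cell types. With an adjusted p under 0.001 as well it was 0, 0, 1, 0, 1, 0 and 2 in CM testis, those 4 and CM spermatocytes before the WT cell types. Without 1 library it ranged from 0 to 3 in CM testis, 1 to 5, 1 to 6 and 0 to 2 in CTCF HET, BORIS KO and CM round spermatids, 0 to 2, 1 to 4 and 0 to 4 in the same order of spermatocytes, 5 to 7 between the WT cell types and 0 to 0 elsewhere. WT CTCF peaks at members with any part within 1 kb of a start numbered 7, of which 1 overlapped a CM peak. That was the first *Stra8* peak, whose summit lay 1234 bases from the nearest start. Of all WT CTCF peaks with a summit within 1 kb of a start, a narrower rule, 30.6% overlapped a CM peak. In that window 0 members had a CM CTCF peak, against 9.59% of all genes. In the upper 50% of each list 3 of 11 WT CTCF peaks at members overlapped a CM peak, against 56.8% of all such peaks. The causes were not tested. Depth limits *Cyp26b1* and *Aldh1a1* in purified cells and *Stra8* in spermatocytes, where counts fell to 0, *Crabp1* in spermatocytes, where they fell to 3, and *Stra8* and *Crabp1* in whole testis.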
